A study of Mus musculus with 6 samples.

Results

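The VIP and PACAP axis comprises 5 genes, the ligand genes Vip and Adcyap1 and the receptor genes Adcyap1r1, Vipr1 and Vipr2, which were taken by symbol from a table of 20325 genes measured by RNA sequencing. All 5 had a row in the table. They were chosen by the normalized expression values of these same samples, with the difference between knockdown and control known, so their values are given as a description and carry no test. The cells were of the C3H10T1/2 line, multipotent mesenchymal progenitors derived from embryos of C3H mice, at passage 10 to 15. The knockdown group (3 samples) was parental cells that received small interfering RNAs to both Ring1a and Ring1b, and the control group (3 samples) was parental cells treated with a scrambled small interfering RNA. Ring1a and Ring1b, encoded by Ring1 and Rnf2, provide the ubiquitin ligase activity of Polycomb repressive complex 1, which helps to keep developmental genes silent in many cell types. The question addressed is which transcripts differ when both genes are targeted. How long the cells were kept after transfection is not stated in the labels, and all samples come from the same line.

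Vasoactive intestinal peptide (VIP) and pituitary adenylate cyclase-activating polypeptide (PACAP) are related secreted peptides of the secretin family, best known from neurons, where they act as transmitters, and from the gut and the immune system. They are cut from larger precursors and bind class B G protein-coupled receptors. VPAC1 and VPAC2, the products of Vipr1 and Vipr2, bind both peptides, whereas PAC1, the product of Adcyap1r1, binds PACAP far more tightly than VIP. All 3 receptors couple mainly to the stimulatory G protein Gs, which activates adenylyl cyclases. The cyclic AMP they make acts through protein kinase A and Epac proteins, is broken down by phosphodiesterases, and leads to phosphorylation of the transcription factor CREB.

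The promoters of the 2 ligand genes are shown first because both carry the same core of the element that CREB binds. Of these 2 genes only Vip was read in the cells. Each sequence below is the 250 bases before the annotated start, from RefSeq on GRCm38.p6, a newer build than the mm9 of the submitters' processing notes, on the + strand and written 5′ to 3′, with TGACGTC in capitals. Vip lies at chr10:5638968-5639217, the upstream of the 2 annotated Adcyap1 starts at chr17:93198767-93199016, and Adcyap1r1, the receptor gene with the widest difference between the groups, at chr6:55451728-55451977.
Vip: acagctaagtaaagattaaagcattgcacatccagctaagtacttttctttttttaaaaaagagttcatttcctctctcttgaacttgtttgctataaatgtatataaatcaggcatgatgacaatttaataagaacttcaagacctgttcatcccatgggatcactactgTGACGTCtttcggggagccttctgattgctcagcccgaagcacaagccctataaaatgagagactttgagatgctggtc
Adcyap1: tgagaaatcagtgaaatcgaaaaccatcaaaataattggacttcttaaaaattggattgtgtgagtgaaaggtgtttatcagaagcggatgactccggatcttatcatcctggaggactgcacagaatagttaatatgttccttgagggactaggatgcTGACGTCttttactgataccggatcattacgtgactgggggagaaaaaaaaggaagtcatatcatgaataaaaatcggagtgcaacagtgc
Adcyap1r1: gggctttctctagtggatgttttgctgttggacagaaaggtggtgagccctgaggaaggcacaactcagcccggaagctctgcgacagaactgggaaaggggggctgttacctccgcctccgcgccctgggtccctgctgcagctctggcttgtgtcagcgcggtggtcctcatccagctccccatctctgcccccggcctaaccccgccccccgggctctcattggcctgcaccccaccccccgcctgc

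TGACGTC begins 79 bases upstream of the start in Vip and 91 bases upstream in Adcyap1, and both copies are read on the strand of the gene. The same genomic copy lies 242 bases before the other Adcyap1 start. This motif of 7 letters, chosen after the sequences were seen and searched on both strands, occurred in 2.78% of the 32851 promoter windows of the same length (914 windows). The palindrome TGACGTCA, which contains TGACGTC and is the textbook cyclic AMP response element, occurred in none of the windows of the 5 genes and in 1.55% of all windows. The shorter TGACG, contained in both, occurred in the windows of Vip, Adcyap1 and Vipr1 and in 17.8% of all windows. A match of letters is a description of the sequence and not evidence of binding.

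The ligand and the receptor promoters also differed in base composition. Polycomb complexes in mammals are often found at CpG-rich promoters, so the ratio of observed to expected CpG was counted in each window. The ligand windows were poor in G and C, at 38.4% for Vip and at 39.6% and 42.4% for the 2 starts of Adcyap1, against a median of 52.4% over all windows. The receptor windows held 65.6% (Adcyap1r1), 72.8% (Vipr1) and 65.2% (Vipr2). The CpG ratio was 0.33 in Vip, below the median of 0.37 over all windows, and 0.42 in Adcyap1r1. It was 0.91 in Vipr1, higher than in 88.7% of all windows, and 0.60 in Vipr2. The other ligand gene, Adcyap1, had 0.76 and 0.63 at its 2 starts, so the ligand genes lay on either side of Adcyap1r1 and Vipr2 by this measure.

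**Figure D1:**
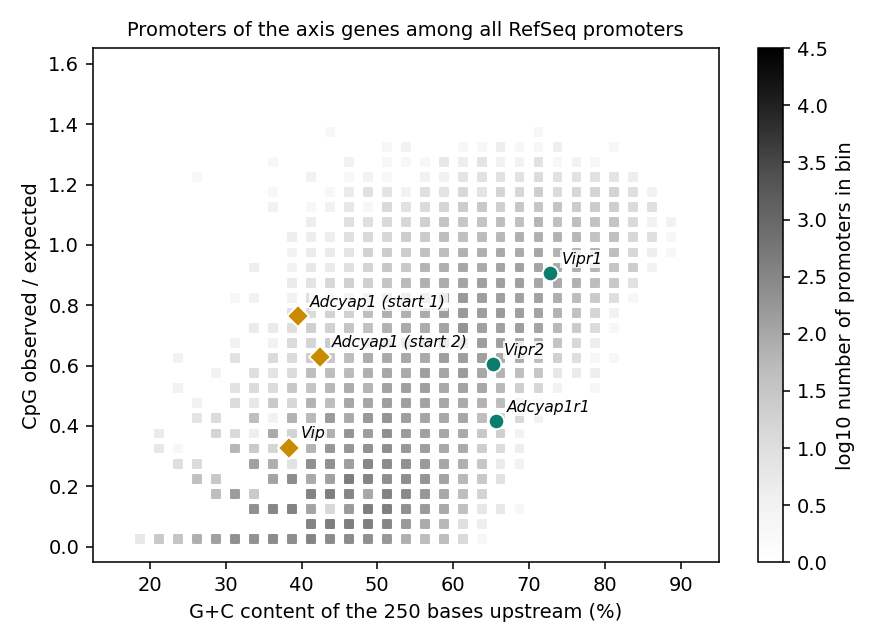
Base composition of the 250 bases upstream of each annotated start. Grey squares count all 32851 RefSeq windows by G+C content (x axis, percent) and CpG observed over expected (y axis); diamonds are the ligand genes and circles the receptor genes. The ligand windows lie at 38.4% to 42.4% G+C and the receptor windows at 65.2% to 72.8%.

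The deposited values are estimated read counts divided by a factor per library, called normalized values here. The most frequent low value of each library gave the worth of 1 read, and from it an estimated depth of 23200000, 4600000 and 18500000 reads in knockdown replicates 1, 2 and 3 and of 51800000, 5400000 and 15100000 reads in control replicates 1, 2 and 3. A count of 3 reads is worth 12.8 in knockdown replicate 2 and 0.78 in control replicate 1, and low genes are therefore least certain in that knockdown sample. Knockdown replicate 2 also stood apart from the rest: its log2 values correlated with those of the other 5 libraries at 0.82 to 0.87 across genes, against 0.94 to 0.99 for all other pairs. Rnf2 stood at 129, 76.5 and 152 in the knockdown samples and at 815, 829 and 799 in the control samples (log2 difference −2.82, SE 0.28, limma adjusted p = 0.00946). The values of Ring1 were 162, 268 and 186 in the knockdown samples and 336, 386 and 374 in the control samples, and the difference missed the threshold (log2 difference −0.86, SE 0.23, limma adjusted p = 0.104).

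Vip, the gene of the VIP precursor, was low in the control cells and far higher in the knockdown cells. Its normalized value was 420, 531 and 235 in knockdown replicates 1, 2 and 3 and 8.03, 5.01 and 6.32 in control replicates 1, 2 and 3. The groups were far apart, and the lowest knockdown sample, replicate 3, lay well above the highest control. The means were 395.6 ± 149.6 in the knockdown and 6.45 ± 1.51 in the control (SD, n = 3 each). Their ratio was 61.3, and 50.8 when knockdown replicate 2, the highest in normalized value, is left out. These values rest on 743, 125 and 331 estimated reads in the knockdown samples and on 31, 2 and 7 in the control samples. With the reads of each group pooled, 1199 in the knockdown and 40 in the control, the ratio of levels was 47.2. Its 95% interval of 34.4 to 66.4 (exact, conditional on the total) covers counting error only. Libraries within a group differed by more than counting error, so the pooled intervals given here are no test of the groups. Vip had the 3rd largest log2 difference of the 12085 genes with a mean of at least 10, at 5.67 on the log2(value + 1) scale. It reached that mean through the knockdown samples alone and was chosen with this difference known, so the rank is a description only. In the authors' deposited table of 323 differential genes, Vip is listed with a fold of 62.2.

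Expressed per kilobase of transcript, Vip moved up the ranking of all genes. Its level per kilobase was 275, 347 and 153.7 in knockdown replicates 1, 2 and 3 and 5.25, 3.28 and 4.13 in control replicates 1, 2 and 3. These levels were higher than those of 75.0%, 78.3% and 65.6% of genes in the knockdown libraries and of 41.5%, 39.7% and 40.9% of genes in the control libraries.

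Adcyap1, the gene of the PACAP precursor, had no read in any library. It was listed at 0 in all 3 knockdown and all 3 control samples. A count of 0 over a group allows a level of up to 0.88 in the knockdown and up to 0.56 in the control (3 reads over the pooled depth of the group, counting error only). The ligand of the axis that binds PAC1 most tightly was thus not detectable at this depth in either group. Its promoter window and that of Vip both hold TGACGTC, and a link of this motif to expression was not tested.

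**Figure D2:**
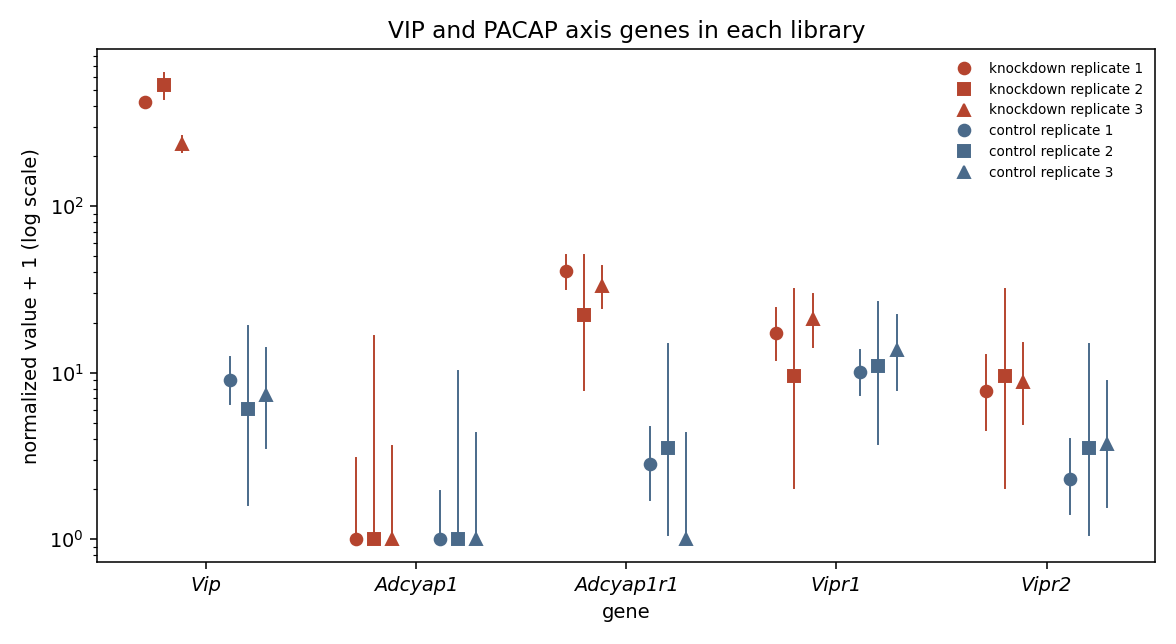
Normalized value plus 1 (log scale) of each axis gene in each library, with knockdown samples left of control samples and a symbol per replicate. Vertical lines are exact 95% Poisson intervals of the estimated reads and cover counting error only. Vip lies between 235 and 531 in the knockdown and between 5.01 and 8.03 in the control, and Adcyap1 is at 0 in every library.

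Adcyap1r1, which encodes PAC1, was the receptor gene with the widest difference. It stood at 39.6, 21.3 and 32.0 in knockdown replicates 1, 2 and 3 and at 1.81, 2.51 and 0 in control replicates 1, 2 and 3. Every knockdown sample lay above every control sample, and the lowest of them, replicate 2, rests on 5 reads (counting interval 6.90 to 49.6). The means were 30.9 ± 9.21 in the knockdown and 1.44 ± 1.29 in the control (SD, n = 3 each). The reads behind them numbered 120 in the knockdown and 8 in the control, of which 7 were in control replicate 1, the deepest library. The pooled ratio was 23.6 (95% interval 11.6 to 55.9, counting error only). The ratio of means was 21.5 with all libraries and 24.9 without knockdown replicate 2. Its log2 difference of 3.85 was the 20th largest of those of the genes with a mean of at least 10. As for Vip, this rank is a description only. The authors' deposited table lists Adcyap1r1 with a fold of 21.6.

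The genes of the receptors shared by VIP and PACAP were low in both groups. Vipr1, which encodes VPAC1, stood at 16.4, 8.50 and 19.9 in the knockdown samples and at 9.06, 10.02 and 12.6 in the control samples. The groups overlapped, because knockdown replicate 2 lay below all controls; that value rests on 2 reads and has a counting interval of 1.03 to 30.7. The means were 14.9 ± 5.84 in the knockdown and 10.6 ± 1.85 in the control (SD, n = 3 each), a ratio of 1.41, and 1.72 without knockdown replicate 2. The pooled ratio was 1.75 (95% interval 1.19 to 2.59, counting error only). Of the 53 control reads 35 were in control replicate 1. Since the groups overlapped, no difference is read from this interval. Vipr2, which encodes VPAC2, stood at 6.79, 8.50 and 7.82 in the knockdown samples and at 1.30, 2.51 and 2.71 in the control samples. All knockdown values of Vipr2 lay above all controls, on 25 reads in the knockdown and 9 in the control. The pooled ratio of Vipr2 was 4.37 (95% interval 1.97 to 10.6, counting error only). At a mean of 4.94 over the 6 libraries it fell below the minimum of 10 used for the test across genes.

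Vip, Adcyap1r1 and Vipr2 had all knockdown samples above all controls, 3 of the 5 members, whereas 20.5% of all tested genes did so. Adcyap1 and Vipr2 were below the mean of 10 and not among the tested genes, so these shares are over unlike sets. Vip, Adcyap1r1 and Vipr1 reached the mean of 10, the first pair through the knockdown samples alone. Since the members were taken with this contrast known, nothing is read from these counts.

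Per kilobase, Vip was the highest of the axis genes in every library, and the order of the receptor genes depended on the transcript chosen. With the longest annotated transcript of each gene, the levels in the knockdown samples were 154 to 347 for Vip, 3.48 to 6.48 for Adcyap1r1, 1.73 to 4.06 for Vipr1 and 2.01 to 2.51 for Vipr2. In the control samples they were 3.28 to 5.25 for Vip, 0 to 0.41 for Adcyap1r1, 1.85 to 2.58 for Vipr1 and 0.38 to 0.80 for Vipr2. Adcyap1r1 was thus the highest receptor gene in the means of the knockdown cells and the lowest in those of the control cells, although its range overlapped with that of Vipr1 in the knockdown and with that of Vipr2 in the control. With the median transcript, which is 1533 bases for Adcyap1r1 against 6107 bases for the longest, Adcyap1r1 reached 13.9 to 25.8 in the knockdown, above both VPAC genes in every sample. Vipr1 and Vipr2 did not differ beyond their spread in the knockdown samples.

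Markers of other cell types were read beside these values, because in bulk RNA fewer cells of a type cannot be told apart from less RNA per cell. The mesenchymal markers were abundant, with a summed normalized value of 282603 to 395608 in the knockdown and of 336719 to 365244 in the control, and 0 of 10 passed the limma test in either direction (5 at an unadjusted p under 0.05). Of 12 neuronal markers 11 were analysed, with a sum of 514 to 748 in the knockdown and of 278 to 376 in the control. Of 3 tested neuronal markers 1 rose and 0 fell in limma, and all 3 had an unadjusted p under 0.05. Tubb3, a tubulin gene and the 1 that rose, stood at 197, 149 and 195 in the knockdown samples and at 72.5, 77.7 and 63.2 in the control samples (log2 difference 1.32, limma adjusted p = 0.0225; named, like the other pair, after its values were seen). Stmn2, a microtubule regulator gene that made up most of the sum, stood at 393, 527 and 303 in the knockdown samples and at 291, 228 and 201 in the control samples (log2 difference 0.74, limma adjusted p = 0.194). Syp, a synaptic vesicle gene, stood at 17.0, 59.5 and 12.8 in the knockdown samples and at 9.06, 5.01 and 9.03 in the control samples (log2 difference 1.54, limma adjusted p = 0.244). In all 3 genes the knockdown samples lay above the controls, as they did in 20.5% of all tested genes. The neuronal markers Snap25, Elavl4, Nefl and Nefm were at 0 in all 6 libraries. Rbfox3, Elavl3, Syt1 and Dcx were read but stayed below the mean of 10. The highest values were 8.50 for Rbfox3 and 4.25 for Elavl3 (both knockdown replicate 2), 1.42 for Syt1 (knockdown replicate 3) and 2.99 for Dcx (control replicate 3). The 5 neuroendocrine markers used averaged under 1 each, with Neurod1 and Dbh at 0 throughout. The sum of the glial list, mostly S100b, was 446 to 2104 in the knockdown and 1804 to 1993 in the control, with the highest value in knockdown replicate 2. The endothelial sum was 111 to 166 in the knockdown and 97.7 to 111 in the control, and Tie1 was at 0 throughout. The leukocyte sum was 22.6 to 38.3 in the knockdown and 12.5 to 14.9 in the control, with Cd3e and Emr1 at 0 throughout, and the epithelial sum was 30.6 to 51.0 in the knockdown and 15.0 to 37.9 in the control. No tested gene of the glial, endothelial, leukocyte and epithelial lists passed in limma (3 glial and leukocyte genes at an unadjusted p under 0.05). Over all genes tested, 4.98% passed in either direction. The part of the lists with expressed genes in the values of Vip was not tested.

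Genes whose profile over the 6 libraries was most like that of a member were ranked by the root mean square distance of log2(value + 1) after subtraction of the control mean, among 11408 other genes with a mean of at least 10. Nearest to Vip were Agtr2 (distance 0.39), an angiotensin receptor gene, then Chodl (0.68), Hoxc13 (0.95), Crmp1 (0.97) and the glutamate transporter gene Slc1a6 (1.03). Agtr2 stood at 98.4, 55.3 and 49.0 in the knockdown samples and at 0.52, 0 and 0 in the control samples. In normalized value Slc1a6 was, like Vip, highest in knockdown replicate 2 and lowest of the knockdowns in replicate 3. It stood at 204, 404 and 167 there, against 10.9, 12.5 and 10.8 in the control samples. The normalized values of knockdown replicate 2 sum to 19500000, against 13100000 to 13700000 in the other libraries. Relative to these totals Vip was highest in knockdown replicate 1, so its likeness to Slc1a6 in this order depends on the scaling. Nearest to Adcyap1r1 were Ptprd (0.33), a receptor phosphatase gene, Chn1 (0.40), Fbln1 (0.51), Zfp185 (0.57) and Il17re (0.58). Vipr1, with its small difference and its low value in knockdown replicate 2, was matched closely by many genes, first Suv39h2 (0.08), Schip1 (0.09), Mical2 (0.10), the collagen gene Col1a1 (0.11) and Kif18a (0.12). Distances are a description of 6 libraries and were not tested.

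**Figure D3:**
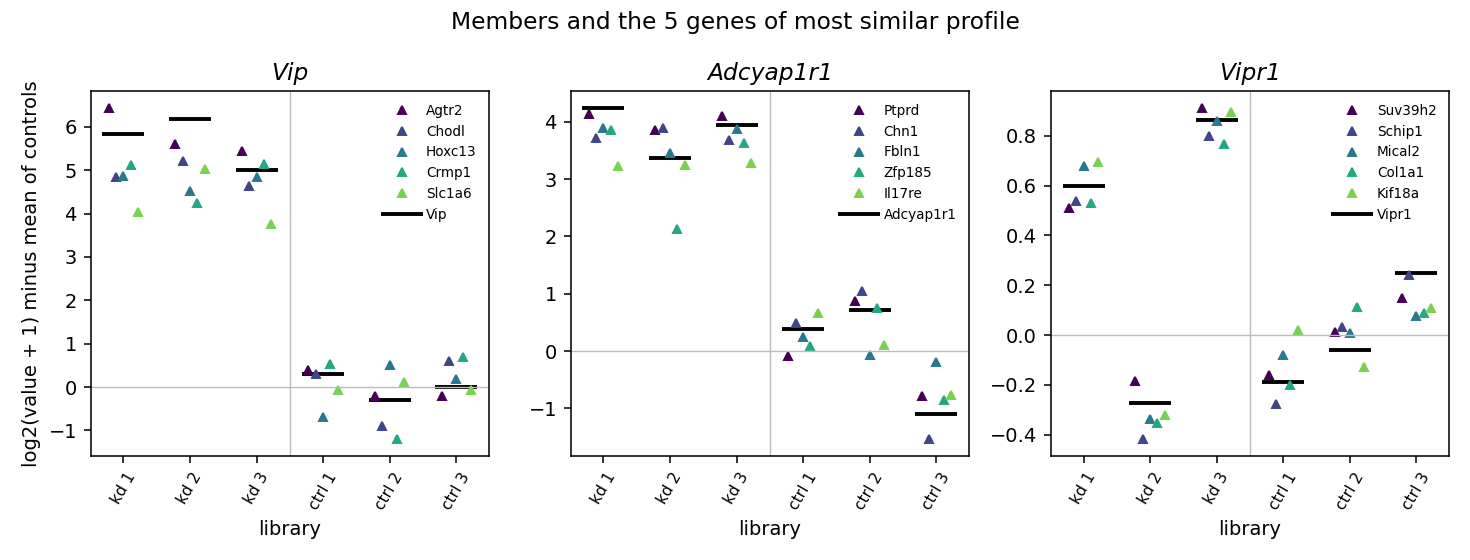
Profiles of Vip, Adcyap1r1 and Vipr1 (black bars) and of the 5 genes nearest to each (triangles) as log2(value + 1) minus the mean of the controls (y axis), per library (x axis, knockdown, written kd, left of control, written ctrl). Triangles follow the bars most closely for Vipr1, where the nearest gene lies at a distance of 0.08, and least for Vip, where it lies at 0.39.

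The other genes of the pathway were taken from 10 lists of known ligands, receptors, signalling proteins, targets and peptide-processing genes. Of their 148 genes 67 reached a mean of 10, of which 4 rose and 4 fell by limma at a Benjamini-Hochberg adjusted p under 0.05. That is 11.9% of those tested, beside 4.98% (602) of all 12085 genes tested, 3.2% higher and 1.78% lower. The median log2 difference was 0.05 over the list members and 0.01 over all genes tested. When libraries were left out in turn, each of the 8 called genes missed the threshold in 5 of 6 fits, without knockdown replicate 1 or 3 and without any 1 of the control replicates (limma adjusted p from 0.0526 to 0.228). Without knockdown replicate 2 each was called again, in a fit that called 49.9% of all genes tested (23.8% higher and 26.1% lower) and 70.8% of the list members (30 rose and 16 fell of 65).

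Among the other ligands of class B receptors, adrenomedullin rose and the rest stayed below the mean of 10 used for the test. Adm, which encodes this vasodilating peptide, stood at 481, 442 and 461 in the knockdown samples and at 98.8, 143 and 154 in the control samples (log2 difference 1.82, SE 0.21, limma adjusted p = 0.0127). It was the single tested gene of 16. The secretin, glucagon and parathyroid hormone genes Sct, Gcg and Pth were among the 15 below the minimum, and 4 genes of the list were at 0 in every library. Of the others, Pthlh, which encodes parathyroid hormone-related peptide, stood at 5.65, 4.25 and 3.55 in the knockdown samples and at 3.63, 7.52 and 2.71 in the control samples. Adm2, a relative of Adm, stood at 4.52, 21.3 and 4.97 in the knockdown samples and at 1.29, 0 and 1.81 in the control samples (both named after their values were seen).

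Of 15 other class B receptor and receptor-activity-modifying protein genes, 3 were tested and 0 passed in limma (1 at an unadjusted p under 0.05). The share over all genes tested was 4.98%. Pth1r, which encodes the parathyroid hormone receptor, stood at 97.8, 366 and 85.3 in the knockdown samples and at 23.0, 22.6 and 28.9 in the control samples. These groups did not overlap, but knockdown replicate 2 was far above the other knockdown samples, and the difference missed the threshold (log2 difference 2.51, SE 0.58, limma adjusted p = 0.0793). Calcrl, the gene of the receptor through which adrenomedullin acts together with its partner proteins, stood at 1523, 502 and 1602 in the knockdown samples and at 1368, 1238 and 1249 in the control samples (log2 difference −0.26, SE 0.47, limma adjusted p = 0.729). Its direction rests on knockdown replicate 2, and without that library the log2 difference was 0.28.

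No gene of the Gs protein and adenylyl cyclase list passed in limma (0 of 8 tested, of 12, and 2 at an unadjusted p under 0.05). Of all genes tested 4.98% passed. Gnas, which encodes the α subunit of Gs, was abundant in both groups, at 19030, 13849 and 18263 in the knockdown samples and at 14620, 15177 and 15814 in the control samples (log2 difference 0.15, SE 0.20, limma adjusted p = 0.64). Adcy6, an adenylyl cyclase gene, stood at 2229, 802 and 2287 in the knockdown samples and at 2342, 2431 and 2406 in the control samples (log2 difference −0.58, SE 0.43, limma adjusted p = 0.458). Knockdown replicates 1 and 3 were close to the controls in Adcy6, and replicate 2 was low.

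Both effectors of cyclic AMP had a member that was called with all 6 libraries. Of 8 tested genes of the protein kinase A and Epac list (of 11), 1 rose and 1 fell. Rapgef3, which encodes the cyclic AMP-activated exchange factor Epac1, stood at 307, 315 and 271 in the knockdown samples and at 139, 140.3 and 151 in the control samples (log2 difference 1.05, SE 0.15, limma adjusted p = 0.021). Prkar2b, which encodes a regulatory subunit of protein kinase A, stood at 859, 616 and 906 in the knockdown samples and at 1684, 1646 and 1728 in the control samples (log2 difference −1.11, SE 0.19, limma adjusted p = 0.0333). In Prkar2b knockdown replicate 2 was the lowest sample, and without it the log2 difference was −0.93. Scaled to the same total, both genes missed the threshold (limma adjusted p = 0.0928 for Rapgef3 and 0.151 for Prkar2b), and Prkar2b also did under the same upper quartile (0.0723).

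The phosphodiesterases, which break down cyclic AMP, included the widest called change of the signalling genes. Of 11 tested (of 16), 1 rose and 1 fell, beside 4.98% called of all genes tested. Pde4b stood at 367, 217 and 367 in the knockdown samples and at 48.7, 50.1 and 57.8 in the control samples, a ratio of means of 6.07 (log2 difference 2.54, SE 0.26, limma adjusted p = 0.00995). Pde7a stood at 465, 561 and 479 in the knockdown samples and at 852, 880 and 858 in the control samples (log2 difference −0.79, SE 0.15, limma adjusted p = 0.0407). With no filter on the mean Pde7a missed the threshold (limma adjusted p = 0.0515; 3.86e-07 to 0.228 over its alternatives), as it did with libraries scaled to the same total (0.0608) or the same upper quartile (0.0723). In knockdown replicates 1 and 3, Pde4b had nearly the same value, and replicate 2 was lower but still far above the controls.

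Neither the CREB family nor the genes that cyclic AMP is known to induce in other cells had a called member. Over all genes tested 4.98% were called, so the absence of calls in such short lists is not read as a result about them. In the CREB list 0 of 8 passed in limma (2 at an unadjusted p under 0.05), with a median log2 difference of −0.58. The coactivator genes Ep300 (1529, 493 and 1817 in the knockdown samples and 1921, 1972 and 1982 in the control samples) and Crebbp (779, 208 and 878 in the knockdown samples and 977, 1085 and 996 in the control samples) were lowest in knockdown replicate 2. In the target list 0 of 10 tested genes (of 13) passed in limma (1 at an unadjusted p under 0.05), with a median of −0.37. The median over all genes tested was 0.01. When knockdown replicate 2 was left out, the medians were −0.25 in the CREB list, 0.07 in the target list and −0.02 over all genes. Junb, an AP-1 transcription factor gene, stood at 728, 264 and 1241 in the knockdown samples and at 488, 611 and 671 in the control samples (limma adjusted p = 0.93). Sik1, a kinase gene that feeds back on CREB signalling, stood at 596, 344 and 584 in the knockdown samples and at 619, 594 and 626 in the control samples (limma adjusted p = 0.48). Without knockdown replicate 2 the CREB list had 1 rise and 6 falls of 8, and the target list 1 rise and 2 falls of 10. These are 87.5% and 30%, beside 49.9% of all genes tested in that fit (23.8% higher and 26.1% lower).

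Of 7 genes of receptor kinases and arrestins, which switch off activated receptors, 6 were tested and 0 passed in limma (2 at an unadjusted p under 0.05). The share that passed over all genes tested was 4.98%. Adrbk1, the older symbol of the kinase gene Grk2, stood at 1370, 1309 and 1340.0 in the knockdown samples and at 1245, 1190 and 1268 in the control samples. The groups did not overlap, but the log2 difference was only 0.12 (SE 0.13, limma adjusted p = 0.57) and was −0.024 when every library was scaled to the same total. Grk6 stood at 720, 510.2 and 732 in the knockdown samples and at 637, 576 and 619 in the control samples, and its log2 difference of 0.08 (SE 0.19, limma adjusted p = 0.794) was −0.062 with that scaling.

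In the list of peptide maturation, granin and peptidase genes, 9 of 19 were tested, and 1 rose and 1 fell. Of all genes tested 4.98% were called. Pcsk6, which encodes a proprotein convertase of the constitutive secretory pathway, stood at 786, 480 and 806 in the knockdown samples and at 132, 178 and 163 in the control samples (log2 difference 2.10, SE 0.26, limma adjusted p = 0.0159, and 0.0784 with libraries scaled to the same total). Scg2, which encodes the granule protein secretogranin II, stood at 53.7, 59.5 and 46.9 in the knockdown samples and at 111, 148 and 137 in the control samples (log2 difference −1.29, SE 0.20, limma adjusted p = 0.0259). Pcsk1, which encodes the convertase that neuroendocrine cells use to cut precursors, was at 0, 0 and 0 in the knockdown samples and at 0, 0 and 0.90 in the control samples (named after its values were seen). Cpe, which trims the ends of cut peptides, was abundant in both groups, at 11779, 16792 and 11114 in the knockdown samples and at 11084, 9927 and 10281 in the control samples (limma adjusted p = 0.437; named after its values were seen).

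Most other neuropeptide genes were silent or barely read in both groups. Of 31 other neuropeptide genes 14 were at 0 in every library and 3 were tested, of which 1 fell and 0 rose. The called share of all genes tested was 4.98%. Penk, which encodes the enkephalin precursor, stood at 379, 901 and 441 in the knockdown samples and at 3260, 2338 and 2416 in the control samples (log2 difference −2.31, SE 0.36, limma adjusted p = 0.029). Knockdown replicate 2 was the highest of the knockdown samples in Penk and still below every control.

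**Figure D4:**
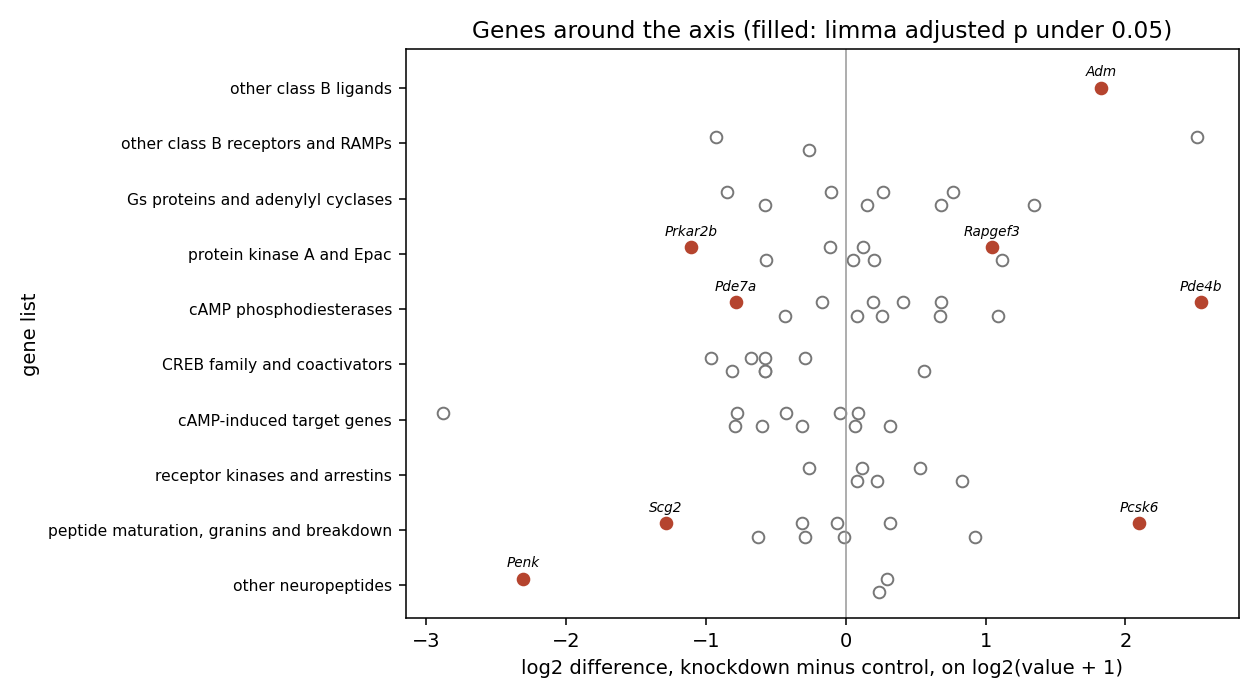
Log2 difference, knockdown minus control, on log2(value + 1) (x axis) of each tested gene of the 10 lists (rows); filled points have a limma adjusted p under 0.05 and are named. The called genes run from Penk at −2.31 to Pde4b at 2.54, with 4 on each side of 0.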

How the data were processed

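RNA was sequenced in 6 samples of C3H10T1/2 cells, 3 knockdown and 3 control, named by group and replicate as in the labels. RNA was extracted with Trizol and libraries followed the Illumina TruSeq protocol, per the labels' protocols. Bowtie 1.0.0, RSEM 1.2.12 and build mm9 are named in the submitters' processing notes; neither annotation nor strand setting is stated in the sources used here, and antisense and overlapping genes cannot be told apart. The authors deposited a signal per gene and library, estimated read counts after median normalization, and a table of 323 differential genes with a fold, whose test is not stated there. That fold could be recomputed for all 323 genes as the ratio of group means with 0.01 added to each, taken over columns of that table that are 1.000 to 1.031 times those of the first, which is why it differs slightly from the ratios given here. Separate cultures are not named for the replicates, and p-values therefore measure the spread between these 6 samples alone, possibly a technical one.

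The value of 1 read was taken as the most frequent low value of each library. Between 88.6% and 90.5% of values of at most 20 reads were whole within 0.1 read, and no count test was run; the reads given for the axis genes are estimates. Genes with a mean of at least 10 (12085) were tested in R 4.3.3 with limma 3.58.1 after log2(value + 1) transformation (trend and robust options, two-sided, Benjamini-Hochberg over all genes tested). Log2 differences are knockdown minus control on that scale, on which changes of low genes come out too small; SE is that of the moderated model. Levels per kilobase used GENCODE M21 transcript lengths. Every pair of libraries within a group differed by more than sampling noise (chi-square per degree of freedom at least 1.51), and none were merged. The members, lists, markers, the rule for naming genes and the alternatives were chosen with earlier results of these data known. Genes named are the 5 members, Ring1 and Rnf2; per list up to 4 called genes with the smallest adjusted p, or the 2 most abundant where none was called; and the 5 genes nearest to each member with a mean of at least 10, predicted and clone names left out. Alternatives were the filter, the pseudocount, the scaling, the replicate number as a block, limma's options, and leaving out each library. The neuronal marker Map2 is not analysed here, and 1 other marker gene is not reported here.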

Additional observations from a re-analysis of the deposited data

How the results depend on the processing

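With all 6 libraries limma called 387 genes higher and 215 lower. Scaling every library to the same total, which moved the median log2 difference of all genes from 0.01 to −0.14, gave 184 and 118, and scaling to the same upper quartile gave 130 lower. Leaving out a library gave 0 to 2855 higher and 0 to 3136 lower. The counts were 0 without any 1 of the control replicates (1475 to 1529 genes at an unadjusted p under 0.05) and highest without knockdown replicate 2. The replicate numbers did not pair the samples (correlations of deviations 0.17, −0.05 and −0.05 for numbers 1, 2 and 3), and with a replicate block limma called 0 and 0 (1866 at an unadjusted p under 0.05), so also 0 in every pathway list. Leaving out a library gave 0 to 1 calls among class B ligands and among neuropeptides, 0 to 3 among class B receptors, cyclic AMP targets and receptor kinases, 0 to 4 among Gs and cyclases, 0 to 7 among protein kinase A and Epac, CREB and peptide maturation genes, and 0 to 10 among phosphodiesterases. Under the same total these were 0 for protein kinase A and Epac and 1 each for phosphodiesterases and peptide maturation; under the upper quartile, 1 each for the first pair; and without the trend and robust options, 1 for Gs and cyclases. With no filter on the mean the phosphodiesterase list had 2 rises and 0 falls in place of 1 and 1, as Pde2a, below the minimum mean, passed and Pde7a did not. The log2 difference of Vip was 5.06 at a pseudocount of 5. That of Adcyap1r1 was 5.25 at 0.1 and 2.47 at 5, and that of Vipr2 1.84 and 0.83, since low genes depend on the pseudocount by construction. Every alternative run for Vip, Adcyap1r1, Vipr1 and Vipr2 kept the knockdown higher. Among named genes that did not pass, the log2 difference changed sign under the same total for Junb (−0.058), Adrbk1 (−0.024) and Grk6 (−0.062). Leaving out a library changed it for Calcrl (−0.55 to 0.28, higher without knockdown replicate 2), Junb (−0.42 to 0.70, lower without knockdown replicate 1 or 3 or control replicate 1) and Grk6 (−0.010 to 0.25, lower without knockdown replicate 3). The causes were not tested. Depth limits Vipr2 and the controls of Vip and Adcyap1r1, which rest on few reads.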

Other observations

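Some low genes around the axis were read mainly in the knockdown samples. They were chosen after their values were seen, lie below the mean used for the test, and carry no test in the main fit. In these genes 1 read is worth 0.57, 4.25 and 0.71 in knockdown replicates 1, 2 and 3, so several values rest on few reads. Nts, which encodes neurotensin, stood at 6.79, 25.5 and 0.71 in the knockdown samples and at 0 in all control samples. Pde2a, a phosphodiesterase gene, stood at 9.05, 4.25 and 9.95 in the knockdown samples and at 0.52, 0 and 0.90 in the control samples. Adcy8, an adenylyl cyclase gene, stood at 9.05, 12.8 and 7.11 in the knockdown samples and at 2.59, 2.51 and 1.81 in the control samples. The lists that hold these genes had a median log2 difference of 0.23, 0.26 and 0.21 over their 3, 11 and 8 tested members. When knockdown replicate 2 was left out, the medians were −1.68, 0.91 and 0.29 over 2, 11 and 7 tested members. Nmb of the neuropeptide list and Adcy5 of the cyclase list then fell below the minimum mean. The medians of these lists with and without that library are therefore not over the same genes.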
